A study of Homo sapiens with 18 samples.

Results

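The SOX transcription factors described here are 8 human genes, *SOX2*, *SOX4*, *SOX5*, *SOX6*, *SOX9*, *SOX11*, *SOX12* and *SOX13*, taken by gene symbol from 21944 genes in a bulk RNA sequencing experiment. SOX proteins bind DNA through a conserved HMG box, bend it, and are placed in groups by the similarity of that box. In the developing pancreas, *SOX9* (SOXE group) maintains progenitor cells and marks the duct lineage, and *SOX4* and *SOX11* (SOXC group, with *SOX12*) are linked to endocrine differentiation. *SOX5*, *SOX6* and *SOX13* form the SOXD group, whose proteins have no activation domain of their own, and *SOX2* (SOXB1 group) keeps stem cells pluripotent and marks the anterior foregut and stomach.

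The cells were pancreatic progenitors at day 19 of differentiation from human embryonic stem cells, detached with accutase and reseeded on laminin-411 (LN411) or, as the comparison matrix, fibronectin (FN). They were collected after 3, 6 or 24 h, which gives 6 groups of 3 samples and 18 samples in all. The protocol and the paper name an SA121-derived line with an NGN3-GFP reporter for this experiment, while the sample labels name HUES4. All groups share the same cells. The value used is the mean normalized count of each gene over all samples, which the deposited table repeats at each time with a largest relative gap of 4.89e-07. It therefore holds no difference between LN411 and FN or between times, and no spread between replicates. No values per sample were analysed here. The depth of single libraries is therefore unknown, and no error can be put on a level. It also cannot be said which neighbours in the order of levels differ beyond their spread.

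All 8 genes were found, and 7 of them had a row at all 3 times. *SOX2* had a row at 24 h and none at 3 or 6 h. Its mean normalized count was 9.44. Of the 4627 genes with a mean normalized count from 5 up to 20, 39.1% had a row at all 3 times. In this range 3189 genes had a row at 3 h, 3918 at 6 h and 2651 at 24 h, so that 24 h was the time with the fewest. A row at 24 h alone, as for *SOX2*, was held by 391 of them, or 8.45%. What decides whether a gene has a row at a time was not tested. Among the 5150 genes from 100 up to 1000, the range that holds *SOX5* and *SOX6*, 99.9% had a row at all 3 times.

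The sequence that the 8 genes share is the HMG box. A stretch of 60 coding bases near the start of the box is shown for each gene, because reads from a shared sequence can be hard to assign to 1 gene. It was read 5′ to 3′ from the GENCODE transcript, and capitals mark the 28 positions at which all 8 genes have the same base.
SOX2: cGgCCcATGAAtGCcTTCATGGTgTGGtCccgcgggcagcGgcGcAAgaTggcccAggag
SOX4: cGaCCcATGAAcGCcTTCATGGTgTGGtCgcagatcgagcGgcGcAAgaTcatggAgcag
SOX11: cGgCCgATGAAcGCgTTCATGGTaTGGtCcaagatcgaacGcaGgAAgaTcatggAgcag
SOX12: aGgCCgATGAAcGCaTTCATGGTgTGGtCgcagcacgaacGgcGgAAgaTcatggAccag
SOX5: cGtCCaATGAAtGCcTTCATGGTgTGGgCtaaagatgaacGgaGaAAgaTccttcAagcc
SOX6: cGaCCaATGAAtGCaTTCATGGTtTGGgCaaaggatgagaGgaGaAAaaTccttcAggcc
SOX13: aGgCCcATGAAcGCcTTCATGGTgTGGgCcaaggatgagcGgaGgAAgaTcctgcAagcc
SOX9: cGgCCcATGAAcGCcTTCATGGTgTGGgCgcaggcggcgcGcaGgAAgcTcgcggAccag

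The lines of the SOXC genes *SOX4*, *SOX11* and *SOX12* resemble each other, as do those of the SOXD genes *SOX5*, *SOX6* and *SOX13*. Over the 237 bases that encode the box, identity between pairs was 84.0% to 86.9% within the SOXC group, 78.9% to 83.5% within the SOXD group and 57.0% to 73.0% for the 22 pairs from different groups. Identical runs were nevertheless short. Over the 28 pairs of the 8 genes, the longest run of identical bases between the transcripts had a median of 17.0 bases and a range of 12 to 35, and 0 pairs reached 50. The longest was shared by *SOX11* and *SOX12*, followed by 33 bases shared by *SOX4* and *SOX12*, both in coding sequence.
SOX11 and SOX12: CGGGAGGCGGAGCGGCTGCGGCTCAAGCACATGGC
SOX4 and SOX12: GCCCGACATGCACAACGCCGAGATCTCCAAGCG

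A longer run joined a member to a gene outside the 8. *SOX2* and *SOX21*, a repressor of the related SOXB2 group, shared 60 coding bases, shown because *SOX21* was the more abundant of the pair by far.
SOX2 and SOX21: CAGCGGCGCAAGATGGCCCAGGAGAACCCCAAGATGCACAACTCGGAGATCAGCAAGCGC

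The mean normalized count of *SOX21* was 2649 and that of *SOX2* 9.44, and per kilobase of transcript *SOX21* was 241 times as high. Whether reads of *SOX21* contributed to the count of *SOX2* was not tested. *SOX9* shared 45 bases with *SOX10* and 37 bases with *SOX8*, the other genes of its group, which had mean normalized counts of 16.2 and 256. With the more abundant *SOX21*, outside its group, *SOX9* shared 36 coding bases.

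*SOX4*, *SOX9* and *SOX11* were the most abundant of the 8 genes. Their mean normalized counts were 40922, 20672 and 15709, and together they made up 93.2% of the summed counts of the 8. Counts grow with transcript length, so levels of different genes are compared as the mean normalized count per kilobase of the transcript tagged as MANE Select or canonical. On this scale, *SOX4* was at 8405, *SOX9* at 5259 and *SOX11* at 1745, against a median of 115 over all genes with an annotated length. *SOX4* was 1.60 times *SOX9*, and *SOX9* was 3.01 times *SOX11*. Across 21944 genes, *SOX4* ranked 132 by mean normalized count, *SOX9* 365 and *SOX11* 521. Per kilobase, they ranked 350, 603 and 2108 of the 21861 genes with an annotated length.

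**Figure D1:**
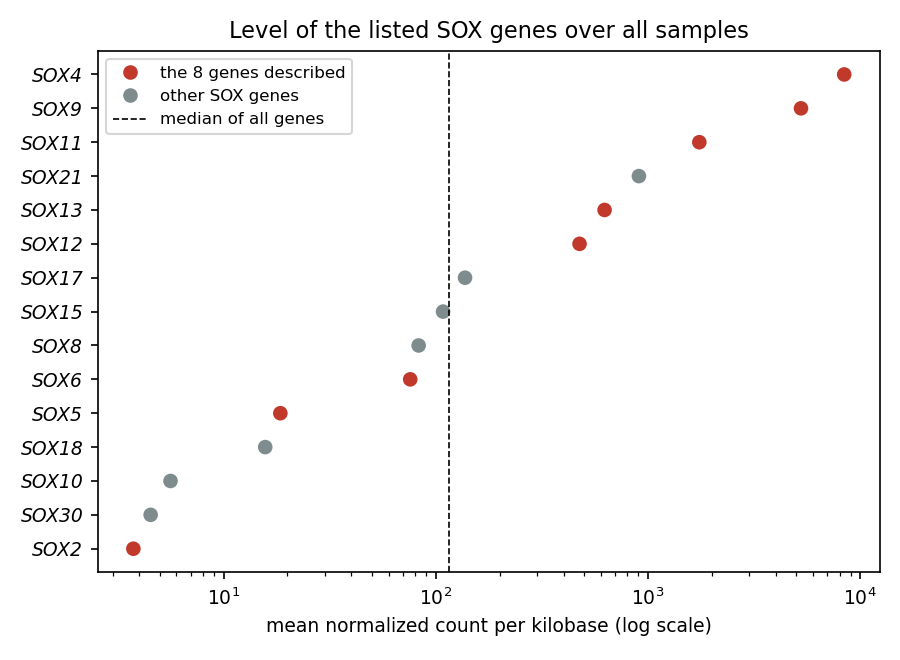
Mean normalized count per kilobase (log scale, horizontal axis) of each listed SOX gene, 1 point a gene, averaged over all samples and therefore without error bars. Red points are the 8 genes described, grey points are other SOX genes, and the dashed line is the median of all genes at 115. SOX4 is highest at 8405 and SOX2 lowest at 3.76.

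Within the SOXC group, the levels were unequal. *SOX4* (ENSG00000124766) lies on chromosome 6 of GRCh38 from 21593751 to 21598619, *SOX11* (ENSG00000176887) on chromosome 2 from 5692384 to 5701385, and *SOX12* (ENSG00000177732) on chromosome 20 from 325552 to 330224. All 3 are genes of a single exon on the plus strand. *SOX12*, which encodes the weakest activator of the group, had a mean normalized count of 2223 and a level of 476 per kilobase. *SOX4* was 17.7 times and *SOX11* 3.67 times as high as *SOX12* per kilobase. The SOXC genes made up 64.0% of the summed level per kilobase of the 8 genes, and 53.2% with the median transcript length.

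*SOX9* (ENSG00000125398) is on chromosome 17 from 72121020 to 72126416, with 3 exons. It was the second most abundant member on every length used. *SOX9* was 63.3 times as high per kilobase as *SOX8*, its group's next most abundant gene.

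The SOXD genes were lower and spread over a wider range. *SOX13* (ENSG00000143842, chromosome 1, 204073115 to 204127743), first described as an islet cell autoantigen, had a mean normalized count of 2544 and a level of 624 per kilobase. *SOX6* (ENSG00000110693, chromosome 11, 15966449 to 16739591), known in beta cells for restraining insulin secretion, had a mean normalized count of 705 and a level of 75.8 per kilobase. *SOX5* (ENSG00000134532, chromosome 12, 23529504 to 24562544) had a mean normalized count of 131 and a level of 18.5 per kilobase. *SOX13* was thus 8.24 times *SOX6* and 33.7 times *SOX5* on the scale per kilobase. With this length, *SOX6* and *SOX5* were below the median of 115 per kilobase over all genes, and *SOX13* was above it. With the median transcript length, *SOX6* at 586 was above the median of all genes on that length, 204, and *SOX5* at 153 was below it. The group made up 4.33% of the summed level per kilobase of the 8 genes, and 20.5% with the median transcript length.

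*SOX2* (ENSG00000181449, chromosome 3, 181711925 to 181714436, 1 exon) was the lowest of the 8, at 3.76 per kilobase. *SOX5*, the next gene up, was 4.93 times and *SOX4* 2236 times as high per kilobase. Of the 21944 genes, 11.0% had a lower mean normalized count than *SOX2*. It lies within an intron of *SOX2-OT*, a long non-coding RNA gene on the same strand with a mean normalized count of 11.8.

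**Figure D2:**
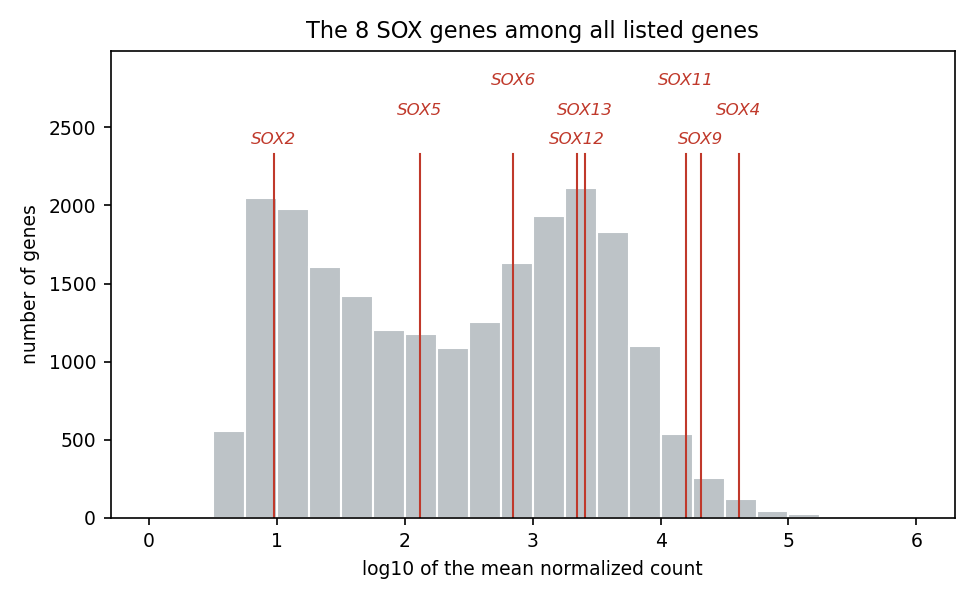
Histogram of the log10 mean normalized count (horizontal axis) of all 21944 genes, with the number of genes per bin on the vertical axis. Red lines mark the 8 SOX genes. SOX4, SOX9 and SOX11 lie in the upper tail, SOX12 and SOX13 in the upper peak, SOX6 and SOX5 between the peaks, and SOX2 in the lower peak.

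Of the 8 genes, 5 had a mean normalized count of 1000 or more, against 36.3% of all genes. All genes include non-coding ones, whereas the 8 are protein-coding. Protein-coding genes were higher as a set. *SOX6*, at 705, had 59.0% of all genes below it but 42.3% of protein-coding genes. The share of protein-coding genes that reached 1000 was not computed, so 36.3% is not a matched background for the 8. The count of 5 is a description, since the 8 genes were chosen with earlier results of these data known. The percent of genes with a lower mean normalized count was 99.4 for *SOX4*, 98.3 for *SOX9*, 97.6 for *SOX11*, 78.4 for *SOX13*, 76.2 for *SOX12*, 59.0 for *SOX6* and 42.9 for *SOX5*. Per kilobase, the percent of genes below was 98.4 for *SOX4*, 97.25 for *SOX9*, 90.4 for *SOX11* and 75.7 for *SOX13*. It was 70.8 for *SOX12*, 44.9 for *SOX6*, 25.5 for *SOX5* and 5.51 for *SOX2*. Among protein-coding genes, the percent below by mean normalized count was 99.2 for *SOX4*, 97.7 for *SOX9* and 96.7 for *SOX11*. On that scale, *SOX13* was at 69.3, *SOX12* at 66.2, *SOX6* at 42.3, *SOX5* at 23.4 and *SOX2* at 4.21. By count, *SOX6* was thus above the middle of all genes and below the middle of protein-coding genes.

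The order of the middle members depended on the length chosen. *SOX2*, *SOX4*, *SOX9*, *SOX11* and *SOX12* have 1 annotated transcript each, and their level per kilobase is the same for every length. *SOX5* has 23 annotated transcripts, *SOX6* 19 and *SOX13* 10, many of them short. Dividing by the union of all exons gave 343 per kilobase for *SOX13*, below *SOX12*. Dividing by the median transcript length gave 3363 for *SOX13*, above *SOX11*, and 586 for *SOX6*, above *SOX12*. *SOX5* stayed between *SOX6* or *SOX12* and *SOX2*, with 11.6 to 153 per kilobase. *SOX4*, *SOX9* and *SOX2* kept the first, second and last place for all 4 lengths.

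**Figure D3:**
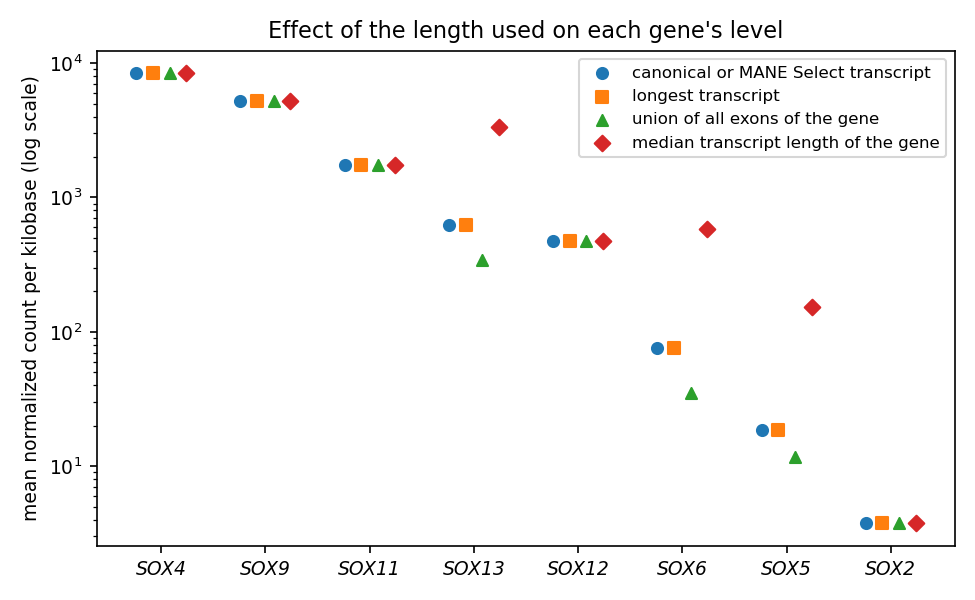
Mean normalized count per kilobase (log scale, vertical axis) of each of the 8 SOX genes, computed with 4 definitions of length (symbols). The symbols coincide for genes with 1 transcript and separate for SOX13, SOX6 and SOX5, by up to 16.7 times for SOX6.

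Several members overlap other annotated genes. The library kit named in the methods is the version that does not mark strand, so reads from a gene and from an overlapping gene on the opposite strand cannot be told apart by strand. *SOX9* lies within the span of *SOX9-AS1* on the opposite strand, whose mean normalized count was 549, with no shared exon bases. The non-coding gene ENSG00000288605 also spans *SOX9* on the opposite strand, without shared exon bases and without a value here. *SOX12* lies within *NRSN2-AS1* on the opposite strand, at a mean normalized count of 153 and also without shared exon bases. *SOX11* shares 74 exon bases with ENSG00000242540, a non-coding gene on the same strand at 52.3. *SOX4* shares 168 exon bases with the non-coding gene ENSG00000283480 on the opposite strand, which has no value here. *SOX6* overlaps the span of *C11orf58*, at a mean normalized count of 11533, on the opposite strand and without shared exon bases. *C11orf58* was thus far higher than *SOX6*, and its part in the count of *SOX6* was not tested. *SOX6* also shares 89 exon bases with the microRNA gene *MIR6073* on the same strand, which has no value here. Its span further overlaps *AKR1B1P3*, *RN7SL188P* and ENSG00000254878. *SOX5* overlaps *SOX5-AS1*, *MIR920* and ENSG00000256473, and *SOX13* overlaps ENSG00000286572. The genes in these last overlaps share no exon bases with the member and have no value here.

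Other SOX genes were mostly low. Of 11 other SOX genes looked for, 7 had a row. *SOX21* had the highest level at 906 per kilobase, between *SOX11* and *SOX13*. *SOX17*, an early endoderm and endothelial factor, was at 137, and *SOX15* at 108. *SOX8* was at 83.0, *SOX18*, a factor of endothelium, at 15.7, *SOX10*, a factor of the neural crest, at 5.62 and *SOX30*, a factor of the testis, at 4.53. *SOX1*, *SOX3*, *SOX7* and *SOX14* had no row. The 8 members held 92.9% of the summed level per kilobase of all listed SOX genes.

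The members were placed beside other transcription factors of the same cells. Of 37 factors, made up of the 8 SOX genes, 18 pancreatic progenitor factors and 11 endocrine factors, *SOX4* had the highest and *SOX9* the second highest level per kilobase of the MANE Select or canonical transcript. *HES1*, an effector of Notch signalling, followed at 5111 and *PDX1*, the central pancreatic progenitor factor, at 4969. *SOX11* ranked 10, after *RFX6* at 1887. *SOX13* and *SOX12* ranked 19 and 21, *SOX6* 27 and *SOX5* 32, and *SOX2* was last. With the median transcript length, *SOX4* ranked 2, *SOX9* 6, *SOX13* 13 and *SOX11* 18. With the MANE Select or canonical transcript, the median level per kilobase was 550.0 for the SOX members, 1035 for the progenitor factors and 41.5 for the endocrine factors. The SOX median was 409 with the union of exons and 1166 with the median transcript length. For these lengths, the medians of the progenitor and endocrine factors were not computed. *NEUROG3*, which starts endocrine differentiation, was at 289 per kilobase in this mean over both matrices and all times, below *SOX12*.

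Markers of the labelled cell type and of other cells that use SOX factors were read in the same mean. All 18 progenitor factors had a row, and 16 of them reached a mean normalized count of 1000. Of 5 endothelial markers, 4 had a row, at mean normalized counts of 5.12 to 75.0. Of 5 neural and neural crest markers, *OTX2* had a mean normalized count of 785 and *SOX10* one of 16.2, and the other 3 had no row. Of 5 mesenchymal markers, all had a row, at mean normalized counts of 14.3 to 4091 with a median of 320. *COL1A1* was highest, followed by *PDGFRA* at 868, *COL3A1* at 320 and *PDGFRB* at 114, and 1 of the 5 reached 1000. Of 5 pluripotency markers, *LIN28A* was at 10333, *ZFP42* at 564 and *DPPA4* at 374, while *POU5F1* and *NANOG* had no row. Of 5 stomach and intestine markers, *CDX2* was at 3556 and *TFF1* at 1691, and the other 3 had no row. In bulk samples, a few cells with a high level and many cells with a low level of a SOX gene cannot be told apart, and the part of other cells in the SOX levels was not tested.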

How the data were processed

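RNA from 18 samples of reseeded pancreatic progenitors was sequenced as poly(A) libraries. The authors aligned reads with STAR 2.7.2d to GRCh38.p13 and counted them per gene with GENCODE v32, and DESeq2 1.34.0 was named for normalization, per the labels and the methods. The mean normalized count is a signal for which the authors divided counts by size factors and took the mean of all samples. The deposited table also holds 5 columns with the results of the authors' comparisons of LN411 with FN at each time (log2 fold change, its standard error, statistic, p-value and adjusted p-value), which were not used here.

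The planned test of LN411 against FN needed values per sample and was not run. No test was made. Each gene was matched by Ensembl identifier to GENCODE v44 on GRCh38, the authors' assembly with a newer annotation, which gave positions and transcript lengths for 99.6% of 21944 genes. Levels were divided by the length of the MANE Select or canonical transcript. The HMG box of *SOX2* was found by its opening residues, and in each other gene as the ungapped window of 79 codons whose translation was most like it. The ranking and the search for shared runs were tested on small examples with known answers. The genes named were all SOX members and other SOX genes with a row, except Y-linked ones, up to 4 genes of each list with the highest level per kilobase, genes annotated over a member, and, outside this rule, genes looked for that had no row. The members and lists were chosen with earlier results of these data known. Biopython 1.88, pandas 2.3.3 and numpy 2.4.6 were run under Python 3.11.15, with matplotlib 3.10.9 for figures.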

Additional observations from a re-analysis of the deposited data

How the results depend on the processing

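The median percent of genes below the SOX members by mean normalized count was 77.3 among all listed genes. It was 74.6 among genes listed at all 3 times and 75.5 among genes whose mean normalized count reached 10, both of which leave out *SOX2*, 67.8 among protein-coding genes and 73.2 for counts divided by transcript length. The members' median level per kilobase was 550.0 with the MANE Select or canonical transcript and with the longest one, 409 with the union of exons and 1166 with the median transcript length. Of the 8 members, 5 reached a mean normalized count of 1000, 7 reached 100 and 3 reached 3000. No paired analysis was possible because the value used is a mean over all samples. For the same reason, the tests of LN411 against FN, leaving out single replicates and other normalizations of counts were not run.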
